A study of Homo sapiens with 8 samples.

Results

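LINC02351 (ENSG00000277987.3) is a long non-coding RNA gene of 97.12 kb on the minus strand of chromosome 15 (hg38, positions 98323902 to 98421021). The study displayed this locus as an example of chromatin that opens after UV light. All distinct accessible intervals overlapping the gene or 100 kb on either side of it, 98223902 to 98521021, were collected from the 8 deposited peak lists. They numbered 286 intervals, 27 to 47 per list, and merged into 111 sites where they overlapped, of 548046 sites in the whole genome. Sites were numbered 1 to 111 along the chromosome, so that high numbers lie upstream of the gene.

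The assay was ATAC-seq in U2OS, a human osteosarcoma line. It uses the Tn5 transposase, which cuts and tags DNA wherever chromatin leaves it exposed. Wild-type (WT) cells and ASH1L-/- cells were left unchallenged (no UV) or were collected 3 h after UV-C at 20 J per square metre, with 2 libraries labelled as biological replicates in each of the 4 groups. ASH1L-/- cells had been made with CRISPR/Cas9, by deletions in exons of the gene of this histone methyltransferase, and isolated as colonies, so that genotype and clone cannot be told apart. All cells had been treated with DNase before lysis to digest DNA of dead or damaged cells.

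UV-C joins neighbouring pyrimidines in DNA, and such lesions are removed by nucleotide excision repair. In chromatin the repair factors meet DNA wrapped on nucleosomes, and accessible intervals mark stretches where the wrapping is loose or absent. Long non-coding RNA genes often lie among enhancers and promoters, whose accessibility can change when cells respond to stress. A peak list records where read pileup exceeded a local background, so an interval missing from a list means that the threshold was not met there, not that the DNA was closed.

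The sequences below are 300 bp of the hg38 plus strand around the summits of the 4 sites whose level was higher in all 4 UV lists than in all 4 no UV lists (40, 62, 80 and 81). Capitals mark every match to the searched motifs.
Site 40, intron summit, overlapping the last exon, chr15:98324502-98324801: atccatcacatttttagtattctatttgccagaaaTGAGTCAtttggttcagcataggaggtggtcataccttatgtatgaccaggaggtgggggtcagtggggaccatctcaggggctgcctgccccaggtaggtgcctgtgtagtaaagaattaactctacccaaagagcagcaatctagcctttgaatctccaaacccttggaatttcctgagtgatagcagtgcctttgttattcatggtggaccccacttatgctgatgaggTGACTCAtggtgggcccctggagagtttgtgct
Site 62, intron, chr15:98381447-98381746: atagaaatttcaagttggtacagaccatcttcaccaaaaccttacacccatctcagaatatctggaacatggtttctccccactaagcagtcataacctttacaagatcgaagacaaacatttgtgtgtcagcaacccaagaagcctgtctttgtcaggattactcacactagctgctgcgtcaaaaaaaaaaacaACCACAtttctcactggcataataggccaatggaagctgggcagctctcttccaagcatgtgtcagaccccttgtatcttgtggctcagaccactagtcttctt
Site 80, exon of LINC02351, chr15:98414118-98414417: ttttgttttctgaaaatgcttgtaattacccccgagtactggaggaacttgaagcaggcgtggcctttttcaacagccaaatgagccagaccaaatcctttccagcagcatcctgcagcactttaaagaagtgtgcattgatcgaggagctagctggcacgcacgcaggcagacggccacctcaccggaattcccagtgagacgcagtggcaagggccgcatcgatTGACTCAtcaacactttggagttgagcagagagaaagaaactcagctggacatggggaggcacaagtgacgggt
Site 81, upstream of the transcription start site, chr15:98421786-98422085: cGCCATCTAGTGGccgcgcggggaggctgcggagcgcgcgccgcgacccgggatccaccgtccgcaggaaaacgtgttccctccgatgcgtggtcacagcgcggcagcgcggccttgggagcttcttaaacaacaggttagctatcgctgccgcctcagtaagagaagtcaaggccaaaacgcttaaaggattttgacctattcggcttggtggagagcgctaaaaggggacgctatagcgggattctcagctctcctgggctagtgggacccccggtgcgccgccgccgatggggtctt

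The motifs were AP-1 (TGANTCA), CRE (TGACGTCA, which TGANTCA does not match), TEAD (GGAATG), RUNX (TGTGGT), E-box (CACGTG), ETS (CCGGAAG), and the p53 decamer (a single decamer, where a full p53 element is a pair), NFI and CTCF by name, on both strands. Site 40 held 2 AP-1 matches and site 80 held 1. Site 62 held 1 RUNX match, and site 81 held 1 CTCF match beside 32 CpG dinucleotides. AP-1, the dimer of Jun and Fos proteins, binds many stress-responsive enhancers. Its match was present in 11 of the 45 sites seen in at least 2 lists (24.4%), beside 29.6% of the 216348 such sites of the genome with a full window. The matches of TEAD (12 sites, 26.7% against 22.5%), RUNX (5 sites, 11.1% against 25.3%), the p53 decamer (4 sites, 8.89% against 8.71%), CTCF (3 sites, 6.67% against 2.11%) and E-box (1 site, 2.22% against 4.96%) were counted in the same way. No site of the window held a CRE, ETS or NFI match, which 0.445%, 2.38% and 0.0661% of all sites held. The median GC content was 49.7%, beside 49% in the genome, and the median number of adjacent pyrimidine pairs, counted on both strands, was 55.9 per 100 positions, beside 56.5.

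The level of a site in a library was the percentile of its fold enrichment among all regions of that list, and 0 where the list had no region. Of the 111 sites, 66 appeared in a single list (59.5%, beside 60.5% in the genome), 41 of them in a no UV list and 25 in a UV list, and were not tested. Their percentiles ran from 0.530 to 70.9 with a median of 19.0. The other 45 sites were tested with limma together with all 216352 such sites of the genome. The lists differed in depth. The mean read pileup of each list was taken as the lowest local background recovered over its regions. It was 2.10 and 1.74 in WT without UV, 2.53 and 2.67 in WT after UV, 5.87 and 1.39 in ASH1L-/- without UV, and 2.45 and 2.81 in ASH1L-/- after UV. The deepest and the shallowest library thus both belonged to unchallenged ASH1L-/- cells, and the part that depth plays in the levels was not tested. The promoter of ASH1L, which cannot show the deletions, was accessible in all 8 lists at percentiles of 81.1 to 97.6. Promoter regions of RUNX2, COL1A1 and VIM, genes of bone and mesenchymal cells, were present in 8 lists, that of COL1A2 in 7 and that of TWIST1 in 2. Among genes of other lineages, CD3E had a promoter region in 0 lists, PTPRC and ALB in 1 each, and AFP and GFAP in 8 each, so these promoters did not separate the lineages cleanly.

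**Figure D1:**
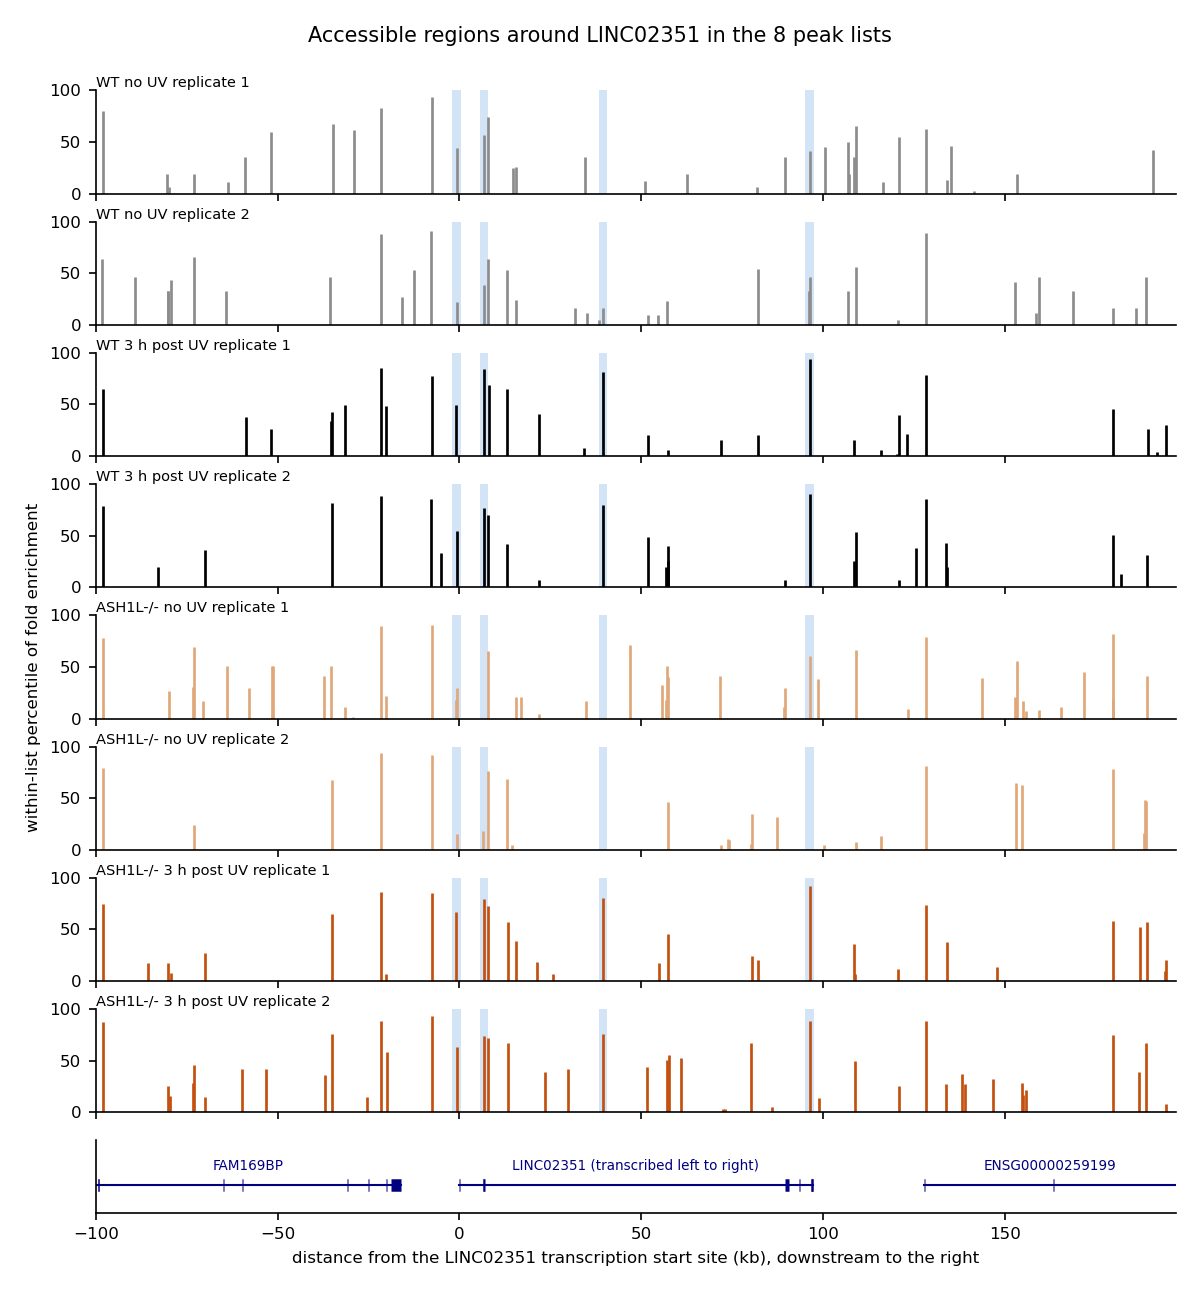
Percentile of fold enrichment (0 to 100) of every accessible region in the window, plotted at its summit against the distance from the LINC02351 start site in kb, with 1 panel per library and the exons of 3 genes as thick blocks below. Blue strips mark sites 81, 80, 62 and 40, from left to right, whose bars are taller in the 4 UV panels, while the tall bars at 7.7 kb and 21.5 kb upstream stand in all 8 panels.

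Few single sites changed with UV. In WT cells, 1 of 45 sites rose (1.97% of all tested sites of the genome rose) and 1 fell (0.772% fell). In ASH1L-/- cells 3 sites rose (2.69%), and over both genotypes 3 sites rose (3.81%). The sites that rose were site 62 in all of these comparisons, site 80 in ASH1L-/- cells and over both genotypes, and site 6 in the same pair of comparisons. The site that fell in WT cells was site 36. Since this locus had been displayed for its rise in these same samples, levels after UV inside it are no independent evidence of a rise.

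Ranks alone gave a similar picture. Both UV lists exceeded both no UV lists at 7 sites in WT cells (15.6% of sites in the genome) and at 9 sites in ASH1L-/- cells (18.9%). All 4 UV lists exceeded all 4 no UV lists at 4 sites (5.74%). Both UV lists lay below both no UV lists at 6 sites in WT (15.8%) and at 3 sites in ASH1L-/- cells (15.3%), and all 4 UV lists lay below all 4 no UV lists at 0 sites (4.41%). These counts are read against the genome shares given beside them, and most lie near them. The median UV difference of the 45 sites was 1.99 percentile points, beside -0.34 over all tested sites. By place, the median was 6.58 points for the 15 tested sites over the gene, 0.773 for the 16 beyond its 3′ end and -0.456 for the 14 upstream.

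Site 62 (98381281 to 98381935), in an intron 39.4 kb into the gene, had the largest change in percentile points of the 45 tested sites. It was absent and at percentile 16.5 in WT without UV, at 81.2 and 79.4 in WT after UV, absent from both lists of unchallenged ASH1L-/- cells, and at 80.7 and 75.5 there after UV. The 4 UV lists lay close together and far above the others. The rise was 72.1 ± 6.72 percentile points in WT (SE, adjusted p = 0.0116, limma) and 78.1 ± 6.72 in ASH1L-/- cells (adjusted p = 0.00785, limma). Over both genotypes the rise was 75.1 ± 4.75 points (adjusted p = 0.00284, limma), and it was called whichever library was left out. Within a genotype, the call was lost when either of its UV libraries was left out, with normal scores, and with trend and robust moderation. In WT it was also lost with the number of regions as a covariate. The site was absent from the deepest of the 8 libraries.

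Site 40 (98324223 to 98325039), at the far 3′ end of the gene, was the strongest region over the gene in each UV list. Its percentiles were 41.6 and 46.7 in WT without UV, against 93.6 and 90.5 in WT after UV. In ASH1L-/- cells they were 60.5 and absent without UV, and 91.7 and 88.6 after it. Every UV list was above every no UV list, but the unchallenged ASH1L-/- pair was split between 60.5 and no region. The difference of 53.9 ± 13.4 points over both genotypes did not pass the test (SE, adjusted p = 0.0975, limma). The difference was 69.0 points without unchallenged ASH1L-/- replicate 1 and 38.8 without replicate 2. Each of these fits left 1 library in that group, so its split no longer entered the spread, and neither fit could decide whether the site rose. Without replicate 1, the remaining value was the 0 set for an absent region. The intervals also differed in extent. They were 150 to 510 bp wide in the no UV lists that held the site and 718 to 806 bp wide after UV.

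Site 80 (98413920 to 98414596) covered an exon near the start of the gene. It stood at percentiles 56.8 and 38.4 in WT without UV, against 84.0 and 77.2 in WT after UV. The ASH1L-/- lists had it absent and at 18.3 without UV, and at 79.5 and 74.1 after UV. The UV lists lay above the no UV lists in both genotypes. The unchallenged genotypes differed by -38.4 ± 9.28 points (adjusted p = 0.177, limma), which rests in part on the absent value set to 0. The site rose by 67.6 ± 9.28 points in ASH1L-/- cells (SE, adjusted p = 0.0230, limma). That call was lost in 5 of the 8 fits that left out 1 library, among them those without either ASH1L-/- UV library. It was also lost with normal scores, with a replicate block and with trend and robust moderation. The difference in WT was 33.0 ± 9.28 points (adjusted p = 0.208, limma). That the rise differed between the genotypes was not shown (difference of WT minus ASH1L-/- -34.6 points, adjusted p = 0.575, limma). Over both genotypes the rise was 50.3 ± 6.56 points (adjusted p = 0.0172, limma). It lost its call under 6 of 19 alternatives, among them the replicate block and the fits without any 1 of the 4 UV libraries.

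Site 81 (98421522 to 98422222), with its summit 915 bp upstream of the start site, had lower levels. They were 44.1 and 21.9 in WT without UV, against 49.2 and 54.4 in WT after UV. In the ASH1L-/- lists they were 29.7 and 15.3 before, and 66.5 and 63.4 after UV. The groups did not overlap, but the difference of 30.6 ± 6.52 points over both genotypes missed the threshold (SE, adjusted p = 0.0667, limma). Without WT no UV replicate 1, which left 1 library in that group, the difference was 36.2 points. The site passed with q-values of 0.01 or below (42.7 points, adjusted p = 0.0113, limma) and with equal numbers of regions (39.6 points, adjusted p = 0.0466, limma).

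Site 79 (98412792 to 98413457), the neighbour of site 80, kept its rank. It stood at 73.8 and 63.4 in WT without UV, against 69.1 and 70.4 in WT after UV. Without UV the ASH1L-/- lists gave 65.8 and 76.7, and after UV 73.1 and 71.6. The difference was 1.10 ± 4.39 points (SE, adjusted p = 0.923, limma). All 8 values fell within the same band. It was the strongest region over the gene in 3 of the 4 no UV lists.

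**Figure D2:**
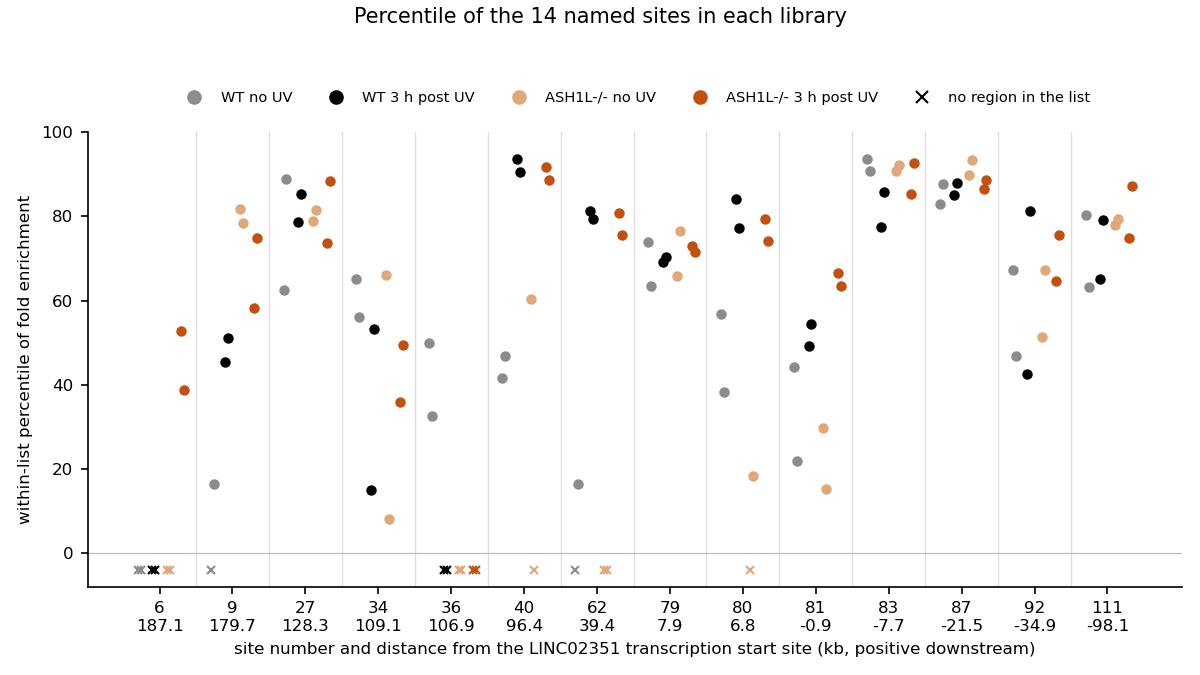
Percentile of fold enrichment of the 14 named sites in each of the 8 libraries, coloured by group, with crosses below 0 for lists with no region and the distance from the LINC02351 start site in kb under each number. At sites 40, 62, 80 and 81 all UV points lie above all no UV points, while at sites 27, 79 and 87 they are mixed.

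Read pileups at the summits showed the same sites on another scale. The pileup recovered from each fold enrichment and its p-value was divided by the mean pileup of the library. Over the 60323 sites of the genome present in all 8 lists, this relative pileup rose after UV by a median of 0.48 on the log2 scale, and values for single sites are read relative to that shift. At site 40 the pileup was 9 and 8 reads in WT without UV and 85 and 119 after UV, and 22 reads (and no region) in unchallenged ASH1L-/- cells against 87 and 75 after UV. Relative to the library mean these were 4.29 and 4.60, 33.6 and 44.5, 3.75, and 35.5 and 26.7. The unchallenged ASH1L-/- side is a single value, 3.75, since the other library had no region there.

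With absent sites set to the lowest summit pileup of their list, limma gave 4 rising sites of 45 in the window over both genotypes. That is 8.89%, no more than the 8.95% of all tested sites of the genome that rose on this scale. The analysis was chosen after the data had been seen. Its p-values are for a difference from 0 and so include the upward shift of the genome, and the excess over that shift was not tested. The 4 sites were 40, 62, 79 and 80. Site 40 rose by 3.09 ± 0.29 (log2 relative pileup, SE, adjusted p = 8.83e-05, limma), site 80 by 2.57 ± 0.38 (adjusted p = 0.00101, limma) and site 62 by 2.10 ± 0.31 (adjusted p = 0.00106, limma). Sites 40, 62 and 80 also passed within each genotype. For site 40 the log2 rise was 3.12 ± 0.42 in WT and 3.07 ± 0.42 in ASH1L-/- cells, and the difference between genotypes was 0.06 ± 0.59 (adjusted p = 0.999, limma). Sites 40, 62 and 80 were each absent from at least 1 unchallenged ASH1L-/- list, and site 62 also from a WT list, so these rises and the genotype difference at site 40 depend on values that were set rather than measured. For sites 40 and 80 in WT all 4 values were measured.

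At site 79 the relative pileup was 12.9 and 10.9 in WT without UV, against 25.3 and 39.6 in WT after UV. The ASH1L-/- values were 6.65 and 15.1 without UV, then 24.9 and 18.8. All 4 UV values exceeded the no UV values, a rise of 1.27 ± 0.34 on the log2 scale (SE, adjusted p = 0.0304, limma), which is 0.78 above the median shift of the genome. That p-value is for a difference from 0 and so includes the shift of the genome. The excess over the shift was not tested. Its local background, relative to the library mean, was 1.96 to 2.32 without UV and 2.99 to 4.36 after UV. The fold enrichment divides by this background. Site 79 rose in pileup while its rank stayed where it was, and the part of the background in this was not tested. Around site 80 the local background was of similar height, 2.05 to 2.25 without UV and 3.11 to 4.35 after UV.

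**Figure D3:**
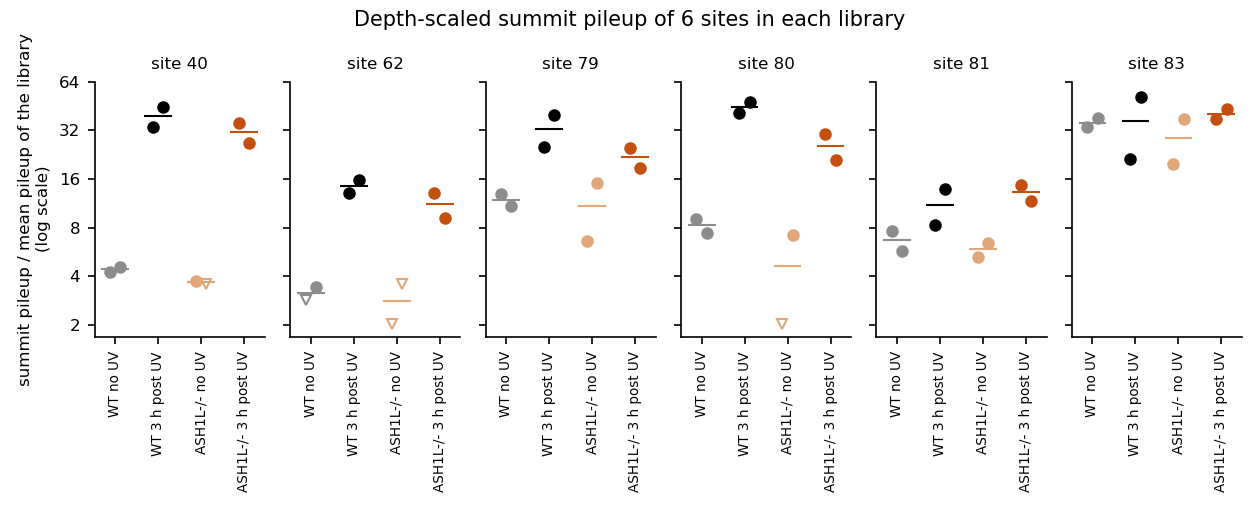
Summit pileup divided by the mean pileup of the library (log scale) at 6 sites, with 1 point per library, a line at the group mean, and open triangles at the lowest summit pileup of lists that have no region. UV points at sites 40, 62, 79, 80 and 81 lie above the no UV points of both genotypes, and at site 83 they overlap.

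Sites 83 and 87, which reached the top 10% of a list without UV, did not change with UV by the test. Site 83 (98428133 to 98429091), intergenic and 7.7 kb upstream of the start site, stood at 93.6 and 90.9 in WT without UV, against 77.4 and 85.9 in WT after UV. Unchallenged ASH1L-/- lists held it at 90.7 and 92.3, and those after UV at 85.4 and 92.8. Both UV lists of WT lay below both no UV lists, as at 15.8% of all tested sites. The difference of site 83 in WT was -10.6 ± 5.47 points (SE, adjusted p = 0.628, limma), and the values of ASH1L-/- cells overlapped. Site 87 (98442315 to 98442909), in the transcribed pseudogene FAM169BP, lay between 82.9 and 93.5 in all 8 lists. In ASH1L-/- cells its UV lists (86.5 and 88.6) lay below its no UV lists (89.8 and 93.5), as at 15.3% of all tested sites. The other sites present in all 8 lists were 27, 34, 92 and 111, with differences over both genotypes of 3.53, -10.4, 7.91 and 1.36 points (adjusted p of 0.743 to 0.934, limma).

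Sites 6, 9 and 36, all beyond the 3′ end of the gene, were called in some contrast. Site 6 (98233850 to 98234045) had a region only in the ASH1L-/- lists after UV, at 52.8 and 38.8. It rose in ASH1L-/- cells by 45.8 ± 5.93 points (SE, adjusted p = 0.0194, limma), and was higher in ASH1L-/- than in WT cells after UV (adjusted p = 0.0376, limma). That was 1 of 45 sites, where 0.772% of all tested sites were higher in ASH1L-/- cells after UV. Site 36 (98314091 to 98314284) had a region only in the WT lists without UV, and fell by 41.2 ± 6.69 points in WT (SE, adjusted p = 0.0462, limma). This call was lost in all 6 fits without 1 library that still tested the site. It was also lost with no filter, equal numbers of regions, the covariate, a replicate block, trend and robust moderation, and on the relative pileup scale. Both calls rest on 2 lists and on the 6 values set to 0, and without either of those lists the site was in 1 list and was not tested. Over both genotypes, site 6 rose by 22.9 ± 4.19 points (adjusted p = 0.0438, limma), and this call was lost when any of the other 6 libraries was left out. The call in ASH1L-/- cells was lost in 7 of 16 alternatives. Among them were the fits without either unchallenged ASH1L-/- library and relative pileup with absent sites set. The call between genotypes after UV was lost in 12 of 16, among them all 6 fits without 1 of those libraries.

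Site 9 (98241028 to 98241624) differed between the genotypes without UV. It was absent and at 16.5 in WT without UV, and at 81.7 and 78.5 in unchallenged ASH1L-/- cells, a difference of 71.9 ± 8.46 points (SE, adjusted p = 0.0237, limma). It was the only one of 45 sites called higher in ASH1L-/- cells without UV (1.08% of all tested sites). This call was lost in 10 of 19 alternatives, normal scores among them. After UV it stood at 45.3 and 51.0 in WT and at 58.3 and 74.9 in ASH1L-/- cells. Its relative pileups were 3.45 in the WT no UV library that held it, against 4.35 and 6.73 in WT after UV. For ASH1L-/- these were 5.62 and 10.1 without UV, and 6.13 and 8.17 after it. Among the genotype comparisons no site of the window was called once WT no UV replicate 1, either WT UV library or either unchallenged ASH1L-/- library was left out.

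The UV differences of the genotypes were compared at each site. No site passed the test of UV by genotype, 0 of 45 in the window and 0% of all tested sites in the genome (limma). At an unadjusted p under 0.05 (limma) there were 1 higher and 3 lower sites in the window, beside 8.08% of all tested sites of the genome. With normal scores 2 sites of the window passed (6964 higher and 7108 lower of 216352 in the genome). With −log10 p ranks 1 passed (779 higher and 868 lower of 216352). The 31 tested sites that were not named had UV differences of -32.9 to 27.5 points over both genotypes, reached a percentile of 69.0 at most, and were present in at most 7 lists.

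**Figure D4:**
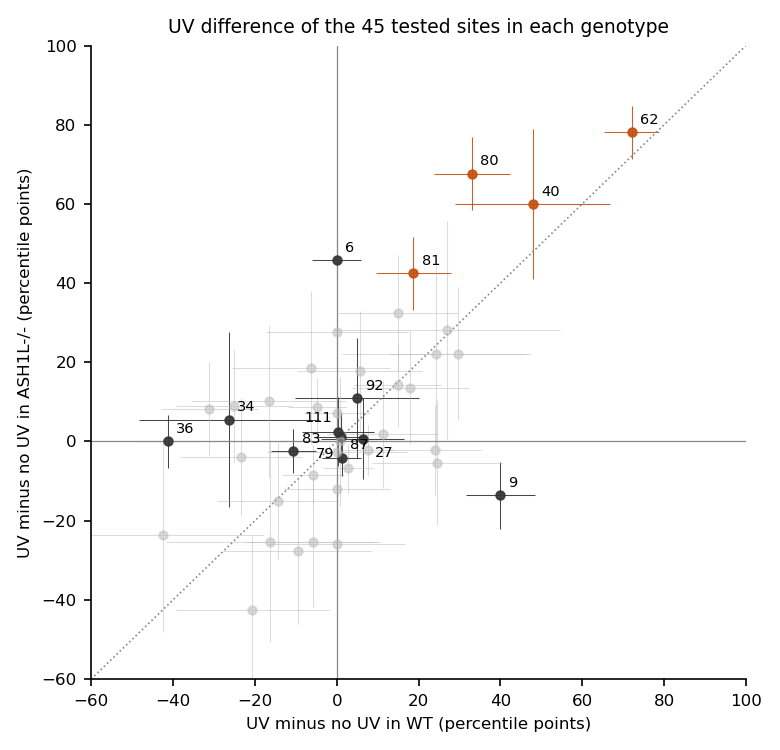
UV difference in percentile points of the 45 tested sites in WT (horizontal) and ASH1L-/- cells (vertical), with standard errors from limma and the line of equal differences dotted. Sites 40, 62, 80 and 81 (orange) lie at the upper right, while site 9 is to the right of 0 in WT and below 0 in ASH1L-/- cells.

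At the level of the gene, the strongest region over LINC02351 had a percentile of 71.2 ± 5.71 without UV and 91.1 ± 2.09 after UV (SD, n = 4 libraries each, exact permutation test, two-sided, p = 0.0286, the smallest that 4 against 4 libraries allow). The values were 73.8 and 63.4 in WT without UV, against 93.6 and 90.5 in WT after UV. Their ASH1L-/- counterparts were 70.9 and 76.7 without UV, and 91.7 and 88.6 after UV. The identity of the region changed too. It was site 79 in 3 of the 4 no UV lists, a region seen in no other list (site 61) in the deepest library, and site 40 in all 4 UV lists. The summed percentile of all sites over the gene was 358.4 ± 52.0 without UV and 551.8 ± 99.0 after UV (SD, n = 4 libraries each, exact permutation test, two-sided, p = 0.0286). Neither p-value is independent evidence of a rise, since the locus had been displayed for its rise in these same samples. With sites 40, 62 and 80 left out, which were chosen for their rise, the strongest region stood at 71.2 without UV and 71.0 after UV, and the sum at 288.7 and 302.8. With all sites kept, the strongest region of the whole window, flanks included, differed by -0.0185 points (UV minus no UV).

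Of 24686 genes with a region in all 8 lists, 1.54% had a UV difference of their strongest region at or above that of LINC02351, 19.9 points, and the median was -1.41. The locus had been displayed for its rise, so this place among genes is no independent evidence either. The 5 genes whose strongest region had levels most like those of LINC02351 over the 8 libraries were ENSG00000287876, ENSG00000277855, ENSG00000286216 and ENSG00000258803, all long non-coding RNA genes, and GOLGA6L2, a member of the golgin family with close copies. Their mean absolute differences from LINC02351 were 2.18, 2.62, 3.08, 3.38 and 3.42 percentile points over 8 libraries.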

How the data were processed

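The authors trimmed the paired reads with cutadapt 1.9.1, aligned them with bowtie2 2.4.5 to hg38 without chromosome Y, filtered them with samtools 1.7, bedtools 2.29.2 and Picard, and called peaks with MACS2 2.2.7.1 in each library separately. Tool names and versions are from the submitters' processing notes. Replicates were not pooled. In the deposited lists, fold enrichment is summit pileup as a ratio over local background, and 2 further columns hold −log10 of the authors' p-values and q-values. They also hold a score, which the authors' caller derived and which was not used.

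Distinct intervals were merged into sites where they overlapped by at least 1 bp. Percentiles were ranks of fold enrichment within a list. Sites in at least 2 lists were fitted with limma 3.58.1 in R 4.3.3 on 4 group means, with Benjamini-Hochberg adjustment over all sites and a threshold of 0.05. Whole summit pileups were recovered from fold enrichment and p-value for 100% of the records tried (tolerance 0.05). Absolute read numbers are not known, and p-values measure the spread between these libraries only. Gene models were from GENCODE 44. Sites were named where present in all 8 lists, called in any contrast, separating the groups, or in the top 10% of a list. Members and lists were chosen with earlier results of these data known. Groups were taken from the sample titles. The scripts were tested on simulated data. One of the marker genes checked and one of the site sequences are not reported here.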

Additional observations from a re-analysis of the deposited data

Results flagged for a closer look

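Site 9, beyond the 3′ end of LINC02351, moved in opposite directions in the genotypes. Both WT libraries after UV were above both WT libraries without UV, and both ASH1L-/- libraries after UV were below both without UV. Subtracting the ASH1L-/- change from the WT change gave 53.5 percentile points (limma, SE 12.0, adjusted p = 0.190), which did not pass the test. On the log2 relative pileup scale, with absent sites at the lowest summit pileup, it was 0.87 ± 0.65 (SE, adjusted p = 0.999, limma).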

How the results depend on the processing

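Over both genotypes, site 62 kept its direction and its call in all 19 alternatives run for it. Within WT and within ASH1L-/- cells it lost the call under some of them. Site 40, which missed the threshold, was called among regions with q-values of 0.01 or below (76.1 points) and with equal numbers of regions (61.4). It was also called with the number of regions as a covariate (63.3) and on the relative pileup scale with absent sites set. Its difference was 69.0 points without unchallenged ASH1L-/- replicate 1 and 38.8 without replicate 2. Those fits left 1 library in that group and could not decide whether the site rose. Of 275 alternative values for the 14 named sites, 225 kept direction and side of the threshold, 12 gained a call, 19 lost one and 19 changed sign. Of the sign changes, 6 were sites 34, 83 and 87 on the pileup scales, which shift sites upward as a whole. Relative to the genome median of the sites present in every list (0.48), these sites were at -0.39, -0.25 and -0.06, so their direction did not turn against it. With absent sites set, the genome median was 0.17. Site 34 (0.088) lay below that median too, but sites 83 (0.235) and 87 (0.428) lay above it, so their direction depended on the median used.

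The 2 sites called after UV in WT became 0 with only sites in all 8 lists, with the covariate, with trend and robust moderation or on log2 relative pileup, and 1 with no filter, with at least 4 lists, with normal scores or with a replicate block. With only sites in all 8 lists, 8 sites of the window were tested, and 0 rose and 1 fell of 60323 in the genome. With trend and robust moderation 0 were called in the genome. With q-values of 0.01 or below there were 3 of 26 tested sites (6396 higher and 689 lower of 149627 in the genome). On relative pileup with absent sites set there were 3 of 45 (5310 higher and 458 lower of 216352). Leaving out 1 library gave 0 to 2. The 3 sites in ASH1L-/- cells became 0 with only sites in all 8 lists, where 1 rose and 1 fell of 60323 in the genome. They also became 0 with trend and robust moderation (0 in the genome) or relative pileup (3606 higher and 185 lower of 60323). They became 1 with normal scores (8952 higher and 4409 lower of 216352) or the replicate block (3167 higher and 1032 lower of 216352). Leaving out 1 library gave 0 to 4. The 3 sites over both genotypes became 0 with only sites in all 8 lists and 1 with the block or relative pileup, 2 with no filter, at least 4 lists or trend moderation, 4 with q-values of 0.01 or below, equal numbers or pileup with absent sites set, and 1 to 4 without 1 library. Over both genotypes, 12011 of 149627 sites of the genome rose with q-values of 0.01 or below (26 tested in the window). With equal numbers 10758 of 187637 rose (39 tested in the window). The 0 sites for UV by genotype became 2 with normal scores and 1 with −log10 p. Between the genotypes, without UV and after it, 0 sites of the genome were called with only sites in all 8 lists or with the block. The 2 sites between genotypes became 0 with only sites in all 8 lists, q-values of 0.01 or below, the block, trend moderation and both pileup scales, and 1 with at least 4 lists, equal numbers or the covariate, and 0 to 1 without 1 library. Without either UV library of WT the WT count was 0, and without either UV library of ASH1L-/- cells the ASH1L-/- count was 0.

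The strongest region over the gene differed by -0.0185 over the gene plus 100 kb (exact permutation p = 0.971), by 19.9 in the replicate block (exact permutation p = 0.0556, the smallest this blocked test can give, so it could not pass), and by 17.3 to 21.7 without 1 library. Site 6 lost its call under 13 alternatives. As measured, the sign changed for site 34 (0.330 with the covariate, log2 0.088 on both pileup scales), site 79 (-1.03 with the covariate), site 83 (log2 0.235), site 87 (1.88 with q-values of 0.01 or below, log2 0.428) and site 111 (-0.610 with −log10 p). Without 1 library it changed for site 27 (-3.02 to 10.1), site 34 (-24.9 to 4.13), site 79 (-1.61 to 3.81), site 92 (-1.79 to 17.6) and site 111 (-2.89 to 5.61). None of these 5 sites was called in the fits without 1 library. The cause was not tested.

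Samples share only a replicate number: correlations of replicate differences between groups were -0.0339 to 0.109, and nothing was crossed. Absence from a list, which sets a level to 0, limits every call at sites present in fewer than 8 lists, and the shallowest library had a mean pileup of 1.39.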
